A study of Mus musculus with 29 samples.

Results

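The comparison described here is the first day of adipogenic induction in 3T3-L1 cells pretreated with C70. 3T3-L1 is an established mouse line of fibroblasts that can be turned into white adipocytes in a dish. C70 is a small molecule that inhibits the KDM5 family of histone demethylases. The pretreated cells received 10 µM C70 from day -2 to day 0, and differentiation medium was added from day 0. The members were chosen by their labels alone. They are the 4 libraries collected at day 1 and the 4 collected at day 0 after C70, 8 of the 29 libraries in the series, and all 11959 genes of the deposited table were compared. The vehicle cells of the same line received DMSO over the same days and the same medium, and gave 3 libraries at day 0 and 3 at day 1. They serve here to show where the pretreated cells took another step. The medium was new at day 0 and the inhibitor was no longer given, so the effects of induction, of C70 withdrawal and of a further day in culture cannot be told apart within the pretreated cells.

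The differentiation medium combined a glucocorticoid, a phosphodiesterase inhibitor that raises cyclic AMP, insulin and an agonist of the nuclear receptor PPARγ. In the usual course of adipogenesis the glucocorticoid receptor and the cyclic AMP pathway switch on C/EBPβ and C/EBPδ, and these factors then bring on PPARγ and C/EBPα, which activate genes for the uptake, synthesis and storage of fat. Arrested preadipocytes also re-enter the cell cycle soon after induction. KDM5 enzymes remove methyl groups from lysine 4 of histone H3, and the trimethyl form of that mark sits at the promoters of active genes.

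Total counts in the 14 libraries of days 0 and 1 ranged from 16433737 to 24037170. The first principal component of the 8 pretreated libraries separated the days and held 93.1% of their variance. Replicates differed by more than counting noise, with a chi-square per degree of freedom of 2.73 to 12.99 between day 0 C70 replicates and of 2.90 to 5.60 between day 1 C70 replicates. The highest values at day 0 with C70 were those of the 3 pairs with replicate 2. Between vehicle replicates the range was 3.84 to 5.44 at day 0 and 3.68 to 12.71 at day 1. The pairs with replicate 1 were highest in the day 1 vehicle group. The labels do not say whether replicates came from separate cultures, so the P values measure the spread between these libraries. Levels are given as CPM, the count of a gene relative to the size of its library after TMM scaling (trimmed mean of M values). Changes are log2 fold changes of day 1 against day 0 from edgeR's quasi-likelihood test, and P values carry the Benjamini-Hochberg adjustment over the 11959 genes. Differentially expressed genes (DEGs) passed 0.05 on the adjusted P value and moved by more than 0.32 on the log2 scale, the thresholds meant wherever a gene is said to pass, rise or fall.

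Between day 0 and day 1, 3089 genes rose in the pretreated cells, 25.8% of the genes tested, and 3207 fell, 26.8% of them. The median log2 fold change over all genes was 0.0050. Among the DEGs, 804 rose and 986 fell more than 2-fold, and 109 rose and 53 fell more than 8-fold. The filter on low counts bears on the falls more than on the rises, since every gene had a CPM above 1 in at least 20 of the 29 libraries: a gene silent in the 7 day 0 libraries can meet this, and a gene silent in all later libraries cannot. In the vehicle cells 3129 genes rose (26.2%) and 3342 fell (27.9%). The 2 steps share no library. Of the genes that rose in the pretreated cells, 2450 also rose in the vehicle cells, 79.3% of the first list and 78.3% of the second. Of those that fell, 2759 also fell in the vehicle cells, 86.03% and 82.6% of the lists. Across the 11959 genes, which share their libraries and are not independent, the log2 fold changes of the 2 steps had a Pearson r of 0.94. 

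The difference of the 2 steps was tested as an interaction, the log2 fold change with C70 minus that with vehicle, and is called the difference of response below. It was positive for 1038 genes (8.68%) and negative for 625 (5.23%). A positive difference arises from a larger rise or a smaller fall. Among the 2759 genes that fell in both arms, 485 had a positive and 93 a negative difference, and the median fold change was -0.79 with C70 and -0.89 with vehicle. Among the 2450 genes that rose in both, 153 had a positive and 217 a negative difference, with medians of 0.72 and 0.76. A further 614 genes passed as risen with C70 and not with vehicle, but the difference itself passed for 146 of them. Of the 445 that passed as fallen with C70 and not with vehicle, it passed for 91. In 28 genes the steps went in opposite directions.

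**Figure D1:**
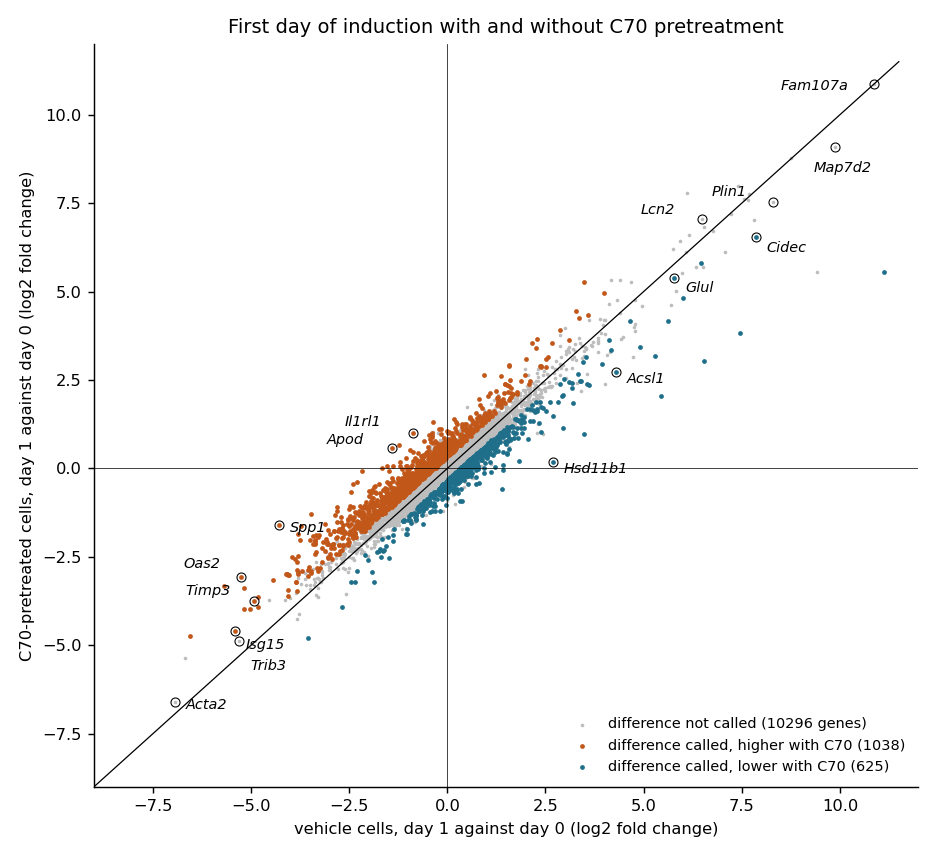
Log2 fold change of day 1 against day 0 in the vehicle cells (horizontal axis) and in the C70-pretreated cells (vertical axis), 1 point per gene for 11959 genes, with colours for a positive or negative difference of response and the line of equal steps. Most points lie near the line, while Spp1 and Apod lie above it and Hsd11b1 and Acsl1 below it.

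The glucocorticoid targets responded in the pretreated cells. Of 31 listed genes in the table, 24 rose (77.4%) and 5 fell (16.1%), beside 25.8% and 26.8% of all genes, with a median log2 fold change of 2.35 against 0.0050 over all genes. With vehicle 25 rose and 5 fell, with a median of 2.33. The difference of response was positive for 8 and negative for 2, beside 8.68% and 5.23% of all genes. Fkbp5, a co-chaperone of the glucocorticoid receptor (chr17:28399094-28517527, minus strand), stood at 155, 155, 152 and 151 CPM in the 4 day 0 libraries and at 1354, 1376, 1357 and 1344 CPM in the 4 day 1 libraries. No day 1 library overlapped a day 0 library, and the rise was 8.85-fold (log2 fold change 3.15 ± 0.036 SE, adjusted P = 2.35e-33). The vehicle libraries went from 145, 149 and 139 CPM to 1327, 1383 and 1328 CPM, so that both arms ended near the same level, with a difference of response of -0.076 ± 0.051 SE, adjusted P = 0.330. Glul, the glutamine synthetase gene (chr1:153899944-153909723, plus strand), stood at 22.5, 23.1, 24.03 and 23.1 CPM at day 0 and 976, 966, 992 and 965 CPM at day 1. The groups lay far apart (log2 fold change 5.39 ± 0.049 SE, adjusted P = 5.87e-36). The vehicle cells stood at 15.7 to 18.8 CPM and then at 926 to 969 CPM, a larger step from a lower start, with a difference of -0.38 ± 0.068 SE, adjusted P = 1.06e-04. Tsc22d3, which encodes the glucocorticoid-induced leucine zipper protein, rose from 47.3 to 494 CPM (log2 fold change 3.38), and Zbtb16, a zinc finger repressor, from 2.11 to 98.4 CPM (log2 fold change 5.52). Per1, a clock gene that the receptor activates, rose from 42.5 to 100.4 CPM (log2 fold change 1.24).

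Fam107a and Lcn2 of the same list were among the 8 largest rises of genes with a mean of at least 10 CPM over the 8 C70 libraries. Fam107a, an actin-associated stress gene, had 6 reads over the 4 day 0 libraries and 11111 over the 4 day 1 libraries, a ratio of 2013 (95% exact interval 924 to 5486), an interval that covers counting error only. In the vehicle cells it had 4 reads over the 3 day 0 libraries and 8115 over the 3 day 1 libraries. Lcn2, which encodes a secreted carrier of siderophores, rose from 1.77 to 233 CPM (log2 fold change 7.05). Other members of the list rose as well. Hif3a, a dampener of the hypoxia response, had 3 reads over the 4 day 0 libraries and 824 over the 4 day 1 libraries, a ratio of 299 (95% exact interval 102 to 1451). Angptl4, an inhibitor of lipoprotein lipase that PPARγ also activates, rose from 36.3 to 733 CPM (log2 fold change 4.33), and Pdk4, the kinase that blocks pyruvate dehydrogenase, from 60.1 to 301 CPM (log2 fold change 2.33). The difference for Pdk4 was 0.75 ± 0.10 SE, adjusted P = 1.18e-06 and the vehicle cells went from 54.6 to 162 CPM. That for Angptl4 was 0.75 ± 0.096 SE, adjusted P = 8.37e-07, with 57.7 and 691 CPM in the vehicle cells.

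Other members of that list fell or parted from the vehicle cells. Timp3, an inhibitor of matrix proteases, fell from 152 to 11.3 CPM (log2 fold change -3.74), and the chemokine gene Cxcl1 from 12.4 to 3.54 CPM (log2 fold change -1.80). The fall of Timp3 was smaller than with vehicle, where the log2 fold change was -4.91, with a difference of 1.17 ± 0.16 SE, adjusted P = 2.42e-06. Nr3c1, the glucocorticoid receptor itself, fell from 205 to 119 CPM (log2 fold change -0.78), and the vehicle step was -0.69. Errfi1, a feedback inhibitor of the EGF receptor, rose from 49.1 to 362 CPM (log2 fold change 2.88), with a difference of 0.36 ± 0.071 SE, adjusted P = 4.88e-04. Hsd11b1, the enzyme that regenerates active glucocorticoid (chr1:193221634-193264075, minus strand), had the largest negative difference among genes with a mean of at least 10 CPM over the 14 libraries of days 0 and 1. In the pretreated cells it stood at 15.2, 18.6, 19.01 and 17.7 CPM at day 0 and 19.4, 18.7, 21.9 and 20.3 CPM at day 1, and the groups did not separate by the thresholds used (log2 fold change 0.19). In the vehicle cells it went from 1.17, 1.40 and 0.511 CPM to 7.35, 7.09 and 5.51 CPM. The difference was -2.51 ± 0.24 SE, adjusted P = 5.41e-09, and even at day 1 every pretreated library was above every vehicle library.

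Of 26 cyclic AMP and immediate early genes, 16 rose (61.5%) and 6 fell (23.1%), with a median of 0.60, beside 25.8% and 26.8% of all genes, against 12 and 9 with vehicle (median 0.25). The difference was positive for 8 and negative for 2, beside 8.68% and 5.23% of all genes. Fosl1, an AP-1 subunit, rose from 16.8 to 124 CPM (log2 fold change 2.89), and Rgs2, a brake on G protein signalling, from 42.3 to 263 CPM (log2 fold change 2.64). For Rgs2 the 4 day 0 libraries read 48.9, 37.9, 38.5 and 43.7 CPM and the day 1 libraries 266, 253, 259 and 274 CPM, whereas vehicle went from 45.2 to 178 CPM, with a difference of 0.66 ± 0.11 SE, adjusted P = 3.65e-05. The phosphodiesterases, which break down cyclic AMP, rose as well: Pde3b from 14.8 to 73.8 CPM (log2 fold change 2.31), Pde4d from 37.6 to 118 CPM (log2 fold change 1.65) and Pde4b from 30.2 to 45.7 CPM (log2 fold change 0.60). The rise of Pde4b was smaller than with vehicle, a difference of -0.54 ± 0.11 SE, adjusted P = 5.14e-04. Nr4a1 rose from 48.03 to 100.4 CPM (log2 fold change 1.06) and Sik1, a kinase that restrains CREB coactivators, from 124 to 201 CPM (log2 fold change 0.70), both with differences that did not pass. Ppargc1a, a coactivator of mitochondrial genes, rose from 26.8 to 42.001 CPM (log2 fold change 0.64), and its vehicle step was 0.058. Klf4 fell from 68.8 to 9.14 CPM (log2 fold change -2.91) and the nuclear receptor gene Nr4a2 from 6.04 to 2.03 CPM (log2 fold change -1.57). Egr1, a growth factor response gene, stood at 96.8 and 105 CPM with C70 and went from 96.5 to 68.3 CPM with vehicle.

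Of the listed adipogenic factors, Cebpd, Cebpb, Klf5 and Pparg rose in the pretreated cells, with differences of response that did not pass the test. Other factors of that list fell, among them Klf4 (log2 fold change -2.91) and Ebf1 (-0.70). Cebpd, which encodes C/EBPδ (chr16:15887286-15891031, plus strand), stood at 20.2, 20.4, 19.1 and 15.2 CPM at day 0 and 138, 145, 148 and 139 CPM at day 1 (log2 fold change 2.93 ± 0.11 SE, adjusted P = 2.99e-20). The vehicle libraries went from 14.7, 16.8 and 12.8 CPM to 104, 116 and 123 CPM, and the difference of response was -0.023 ± 0.18 SE, adjusted P = 0.949. Cebpb, which encodes C/EBPβ (chr2:167688915-167690418, plus strand), stood at 93.3, 89.6, 88.2 and 58.9 CPM and 165, 170.5, 171 and 156 CPM, with 1 day 0 library below the other 3 and no overlap between days (log2 fold change 1.01 ± 0.14 SE, adjusted P = 3.24e-07). Its difference was -0.074 ± 0.22 SE, adjusted P = 0.866. Klf5, an activator of Pparg, rose from 34.99 to 138 CPM (log2 fold change 1.98), beside a vehicle step of 1.96. Pparg itself, the PPARγ gene (chr6:115360951-115490399, plus strand), read 40.3, 35.3, 36.9 and 38.5 CPM at day 0 and 51.9, 52.6, 54.6 and 52.5 CPM at day 1, a modest step (log2 fold change 0.49 ± 0.054 SE, adjusted P = 2.22e-09) beside a vehicle step of 0.58.

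Cebpa, the later partner of Pparg (chr7:35119293-35121928, plus strand), departed from that pattern. It stood at 17.8, 16.9, 14.7 and 14.6 CPM at day 0 and 77.1, 78.4, 77.7 and 73.5 CPM at day 1 with C70, and at 13.5, 11.9 and 11.1 CPM and 98.1, 118 and 113 CPM with vehicle. It rose in both arms, and less in the pretreated cells, with a difference of -0.90 ± 0.13 SE, adjusted P = 8.21e-06. Lpin1, a phosphatidate phosphatase that also acts as a coactivator, rose from 61.1 to 186 CPM (log2 fold change 1.604), with a difference of -0.64 ± 0.093 SE, adjusted P = 6.56e-06. Srebf1, the lipogenic SREBP gene, rose from 39.1 to 135 CPM (log2 fold change 1.79), and Stat5a from 44.2 to 132 CPM (log2 fold change 1.58), with differences inside the fold threshold. Nfib fell from 254 to 109 CPM (log2 fold change -1.22). Over the 29 adipogenic factors in the table, 16 rose (55.2%) and 6 fell (20.7%), with a median of 0.49, beside 25.8% and 26.8% of all genes. With vehicle 17 rose and 7 fell (median 0.85). The difference passed for 1 gene in the positive and 4 in the negative direction, beside 8.68% and 5.23% of all genes.

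Factors known to hold back adipogenesis went down in part. Of 35 in the table, 18 fell (51.4%) and 9 rose (25.7%), beside 26.8% and 25.8% of all genes, with a median of -0.38, and with vehicle 19 fell and 7 rose. The difference was positive for 9 and negative for 2, beside 8.68% and 5.23% of all genes. Gata2, which represses Pparg, fell from 25.2 to 3.44 CPM (log2 fold change -2.88), beside a vehicle step of -2.99. Dlk1, the transmembrane preadipocyte protein also called Pref-1 (chr12:109452823-109463336, plus strand), stood at 2921, 3012, 2973 and 2746 CPM at day 0 and 1347, 1424, 1299 and 1303 CPM at day 1. It fell by 2.17-fold (log2 fold change -1.12 ± 0.086 SE, adjusted P = 5.99e-13). The vehicle libraries went from 2579, 2666 and 2470.0 CPM to 1018, 1034 and 1033 CPM, a lower level at both days, and the difference of response was 0.21 ± 0.13 SE, adjusted P = 0.293, which passed after quantile normalization. In 5 other members the fall was smaller than with vehicle. The matricellular gene Ccn5 fell from 40.5 to 10.8 CPM (log2 fold change -1.90) with a difference of 1.53 ± 0.22 SE, adjusted P = 5.68e-06, and Wnt6, a Wnt ligand, from 7.66 to 3.55 CPM (log2 fold change -1.10) with a difference of 1.30 ± 0.24 SE, adjusted P = 1.95e-04. Snai2, a repressor of the Snail family, fell from 76.2 to 55.03 CPM (log2 fold change -0.47) with a difference of 0.77 ± 0.080 SE, adjusted P = 2.76e-08, and the corepressor gene Runx1t1 from 58.1 to 15.9 CPM (log2 fold change -1.87) with a difference of 0.65 ± 0.11 SE, adjusted P = 7.03e-05. Nr2f2, the nuclear receptor gene of COUP-TFII, fell from 145 to 98.6 CPM (log2 fold change -0.56) with a difference of 0.38 ± 0.084 SE, adjusted P = 0.00141. Foxo1 rose from 19.1 to 58.8 CPM (log2 fold change 1.63), with 1 library above the other 3 at each day, and Irf4 from 0.279 to 3.64 CPM (log2 fold change 3.70).

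Genes of fat storage rose over the day. Of 41 adipocyte lipid and secretory genes, 32 rose (beside 25.8% of all genes) and 5 fell in the pretreated cells, with a median of 1.604, and 32 rose and 3 fell with vehicle, with a median of 2.08. The difference was negative for 20 of the 41 and positive for 4, beside 5.23% and 8.68% of all genes. Plin1, the coat protein of the lipid droplet (chr7:79720218-79732903, minus strand), stood at 0.640, 0.8288, 0.397 and 0.328 CPM at day 0 and 99.4, 102, 104 and 100.2 CPM at day 1 (log2 fold change 7.55 ± 0.10 SE, adjusted P = 3.31e-31). Cidec, which fuses droplets (chr6:113424634-113435760, minus strand), stood at 0.886, 0.932, 1.34 and 1.35 CPM and 112, 107, 109.9 and 96.3 CPM. The vehicle cells took Cidec from 0.886, 0.935 and 1.07 CPM to 217, 256 and 199.6 CPM, and the difference was -1.32 ± 0.29 SE, adjusted P = 0.00116. Cd36, a fatty acid transporter, rose from 3.04 to 171 CPM (log2 fold change 5.81), and Fabp4, the adipocyte fatty acid binding protein, from 38.002 to 471 CPM (log2 fold change 3.63). Adipoq, the adiponectin gene, stood at 0.345, 0.311, 0.298 and 0.410 CPM at day 0 and 6.63, 6.79, 6.33 and 5.35 CPM at day 1 (log2 fold change 4.16), and the vehicle cells reached 14.2, 16.9 and 12.8 CPM. Its difference was -1.47 ± 0.51 SE, adjusted P = 0.0408, a call that was lost without any 1 of 8 libraries.

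Several enzymes that activate and esterify fatty acids had negative differences. Acsl1, which joins fatty acids to coenzyme A (chr8:46471037-46536051, plus strand), stood at 39.8, 38.96, 39.02 and 38.9 CPM at day 0 and at 261, 254, 278 and 250.1 CPM at day 1. The vehicle libraries stood at 32.1, 35.2 and 31.3 CPM and then at 629, 713 and 580.2 CPM, above every pretreated library of the same day at day 1. The difference was -1.55 ± 0.080 SE, adjusted P = 1.09e-14. Agpat2, the second acyltransferase of triglyceride synthesis, rose from 26.6 to 54.1 CPM (log2 fold change 1.03) with C70 and from 21.3 to 113 CPM with vehicle, with a difference of -1.37 ± 0.12 SE, adjusted P = 1.81e-09. Dgat2, which makes triglyceride from diglyceride, rose from 6.05 to 46.8 CPM (log2 fold change 2.96) with a difference of -0.97 ± 0.15 SE, adjusted P = 1.34e-05, and Gpat3 from 6.19 to 32.8 CPM (log2 fold change 2.40) with a difference of -1.15 ± 0.14 SE, adjusted P = 6.07e-07. Gpam, the mitochondrial first acyltransferase, rose from 36.8 to 99.7 CPM (log2 fold change 1.44) with a difference of -0.069 ± 0.11 SE, adjusted P = 0.714. Lpl, which releases fatty acids from lipoproteins, stood at 1391, 1377, 1400.0 and 1429 CPM and 2402, 2357, 2476 and 2488 CPM, with a difference of -0.81 ± 0.063 SE, adjusted P = 9.43e-11.

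De novo synthesis and lipolysis divided by gene. Fasn, the fatty acid synthase gene, rose from 391 to 796 CPM (log2 fold change 1.03). Its difference of -0.37 ± 0.12 SE, adjusted P = 0.0275 did not pass after quantile normalization or without any 1 of 4 libraries. Acaca, the acetyl coenzyme A carboxylase gene, read 65.3 and 69.1 CPM (log2 fold change 0.082). Elovl6, a fatty acid elongase, fell from 39.6 to 24.7 CPM (log2 fold change -0.68) with a vehicle step of 0.27 and a difference of -0.96 ± 0.11 SE, adjusted P = 1.53e-07, and the malic enzyme gene Me1 fell from 42.2 to 27.6 CPM (log2 fold change -0.61). The lipase genes Pnpla2 and Lipe rose from 24.3 to 273 CPM (log2 fold change 3.49) and from 14.1 to 165 CPM (log2 fold change 3.55), with differences that stayed inside the thresholds used. Plin2, the droplet coat of many cell types, was among the 4 with a positive difference (0.58 ± 0.077 SE, adjusted P = 1.91e-06), and rose from 136 to 389 CPM (log2 fold change 1.52). Fabp5, the epidermal fatty acid binding protein, rose from 23.4 to 56.6 CPM (log2 fold change 1.27) and went from 23.996 to 122 CPM with vehicle, a difference of -1.07 ± 0.13 SE, adjusted P = 5.80e-07.

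**Figure D2:**
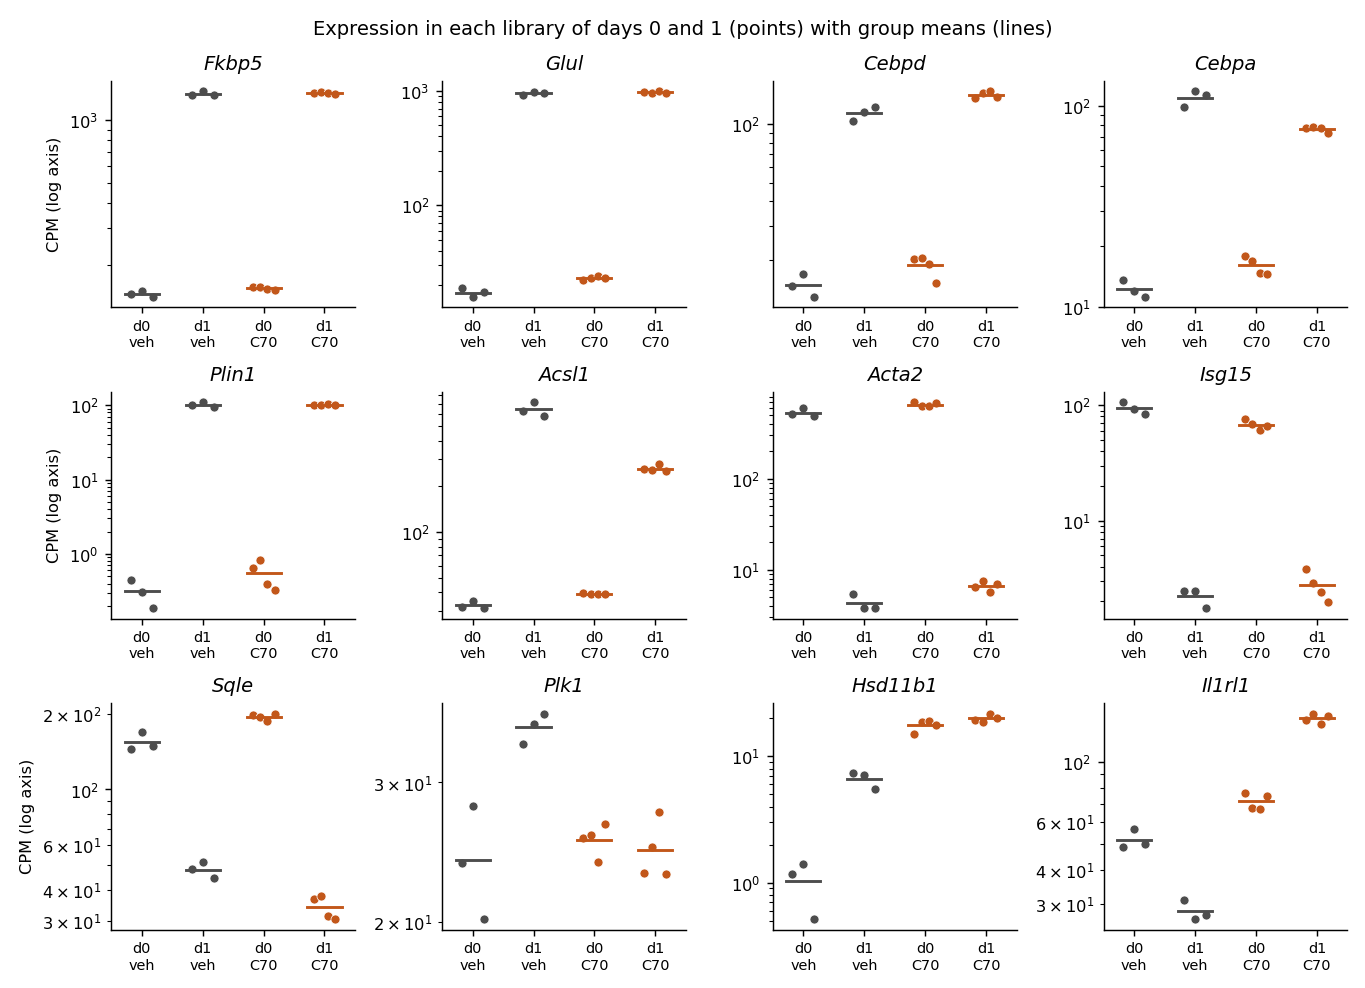
CPM on a log axis for 12 genes in each library of days 0 and 1 (d0 and d1), for C70-pretreated cells (4 libraries a day) and vehicle cells (veh, 3 a day). Each point is 1 library and each bar the mean of a group. Fkbp5, Glul and Plin1 reach like levels in both arms at day 1, Cebpa and Acsl1 end lower with C70, and Il1rl1 rises with C70 and falls with vehicle.

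Cholesterol synthesis genes fell. Of 24 genes 22 fell (91.7%, beside 26.8% of all genes) and 1 rose, with a median of -1.59, and with vehicle 20 fell and 2 rose with a median of -1.02. The difference was negative for 17 of the 24, beside 5.23% of all genes. Sqle, the squalene epoxidase gene (chr15:59315077-59331192, plus strand), stood at 197, 195, 187 and 199.9 CPM at day 0 and 36.8, 37.7, 31.6 and 30.5 CPM at day 1 with C70 (log2 fold change -2.51 ± 0.061 SE, adjusted P = 2.12e-25). With vehicle it stood at 145, 168 and 149 CPM and 48.2, 51.6 and 44.7 CPM, and the difference was -0.83 ± 0.089 SE, adjusted P = 5.14e-08. Fdps, the farnesyl diphosphate synthase gene, fell from 8.87 to 0.968 CPM (log2 fold change -3.20) and the methylsterol oxidase gene Msmo1 from 198 to 26.1 CPM (log2 fold change -2.93). Cyp51, the lanosterol demethylase gene, fell from 142 to 69.3 CPM (log2 fold change -1.04) with a difference of -0.99 ± 0.089 SE, adjusted P = 1.87e-09. Srebf2, the main transcription factor of the pathway, fell from 339.7 to 122 CPM (log2 fold change -1.48). Acat2, which makes acetoacetyl coenzyme A, read 66.2 and 66.7 CPM with C70 and went from 59.7 to 114 CPM with vehicle, a difference of -0.92 ± 0.086 SE, adjusted P = 3.38e-09. The single rise was that of Dhcr7, the last enzyme of the route, from 57.5 to 128 CPM (log2 fold change 1.15), with a positive difference of 0.67 ± 0.090 SE, adjusted P = 1.80e-06.

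Genes of DNA replication were called lower or not at all in the pretreated cells. Of 56 in the table, 0 passed as risen in edgeR or in DESeq2, 6 were higher at an unadjusted P under 0.05, and 27 fell (48.2%, median -0.31), beside 25.8% risen and 26.8% fallen over all genes, while with vehicle 7 rose and 19 fell (median -0.13). The log2 fold change was below that of vehicle in 51 of the 56, and the difference passed as negative for 15, beside 5.23% of all genes. Mcm6, a subunit of the replicative helicase (chr1:128331590-128359664, minus strand), stood at 80.8, 89.2, 90.8 and 81.2 CPM at day 0 and 39.8, 40.5, 42.9 and 38.6 CPM at day 1 (log2 fold change -1.08 ± 0.068 SE, adjusted P = 5.81e-15). The vehicle libraries stood at 90.03, 93.3 and 82.6 CPM and 50.1, 56.96 and 51.02 CPM, and the difference was -0.33 ± 0.10 SE, adjusted P = 0.0213, a call that was lost after quantile normalization or without any 1 of 6 libraries. Mcm2, Mcm3 and Mcm5 of the same complex had log2 fold changes of -1.15, -1.12 and -0.96, with a difference for Mcm5 of -0.61 ± 0.11 SE, adjusted P = 9.04e-05. Uhrf1, which maintains DNA methylation behind the fork, fell from 43.5 to 17.3 CPM (log2 fold change -1.33), with a difference of -0.53 ± 0.10 SE, adjusted P = 4.45e-04, and the chromatin assembly gene Chaf1b from 23.4 to 10.3 CPM (log2 fold change -1.18). Rrm2, a subunit of ribonucleotide reductase, read 33.04 and 39.1 CPM with C70 and went from 33.001 to 60.9 CPM with vehicle.

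Most genes of mitosis were not called in the pretreated cells. Of 67, 11 rose (16.4%), 14 fell (20.9%) and 42 were not called with C70, beside 25.8% risen and 26.8% fallen over all genes (median 0.034), against 33 and 6 with vehicle (median 0.31). In 65 of the 67 the log2 fold change was below that of vehicle, and the difference was negative for 21, beside 5.23% of all genes. Plk1, the polo-like kinase of mitotic entry (chr7:122159439-122169873, plus strand), stood at 25.6, 25.7, 23.8 and 26.6 CPM at day 0 and 23.1, 24.9, 27.5 and 23.02 CPM at day 1 with C70. With vehicle it stood at 23.7, 28.01 and 20.1 CPM and 33.5, 35.6 and 36.7 CPM, and the difference was -0.61 ± 0.13 SE, adjusted P = 0.00105. Nusap1, a spindle protein, rose from 18.1 to 38.02 CPM (log2 fold change 1.07), and Top2a, the topoisomerase that untangles chromosomes, from 113 to 184 CPM (log2 fold change 0.71). Ccnb2 passed in the fit as reported (log2 fold change 0.33) but lost the call when any of 4 pretreated libraries was left out. Ccnb1, the main mitotic cyclin, read 20.4 and 22.7 CPM, and Birc5, the survivin gene, 13.1 and 12.9 CPM with no call. Cdk1 read 28.1 and 26.9 CPM with C70 and went from 27.4 to 35.6 CPM with vehicle, with a difference of -0.44 ± 0.13 SE, adjusted P = 0.0136 that was lost without vehicle replicate 3 of day 1. Mybl2, a coactivator of these genes, fell from 5.90 to 2.85 CPM (log2 fold change -1.04), and the kinesin gene Kif18a from 8.37 to 5.14 CPM (log2 fold change -0.71).

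Of 31 regulators of G1, 10 rose (32.3%) and 10 fell (32.3%), near the 25.8% and 26.8% of all genes. Ccnd1, the cyclin D1 gene (chr7:144929931-144939925, minus strand), stood at 285, 279, 275 and 284 CPM at day 0 and 56.5, 51.8, 49.1 and 52.6 CPM at day 1 (log2 fold change -2.42 ± 0.074 SE, adjusted P = 6.05e-23). Its vehicle step was -2.75, and the difference of response was 0.33, adjusted P = 0.0327, just past the fold threshold. Ccnd3 rose from 95.6 to 181 CPM (log2 fold change 0.92), so the D cyclins did not move as a group. Ccne2, an E cyclin, rose from 4.86 to 8.94 CPM (log2 fold change 0.87) with a difference of -0.82 ± 0.16 SE, adjusted P = 3.39e-04. Ccne1 read 11.4 and 12.8 CPM with C70 and went from 13.1 to 21.95 CPM with vehicle, a difference of -0.57 ± 0.11 SE, adjusted P = 2.50e-04. Ccna2, the S phase cyclin, read 33.9, 42.7, 40.1 and 38.95 CPM and 42.2, 39.4, 43.4 and 36.3 CPM, overlapping groups, with a difference of -0.17 ± 0.14 SE, adjusted P = 0.434. Myc rose from 24.9 to 77.2 CPM (log2 fold change 1.63), less than with vehicle, a difference of -0.67 ± 0.089 SE, adjusted P = 2.15e-06. Cdkn1a, the p21 inhibitor, rose from 209.7 to 316 CPM (log2 fold change 0.59) with a positive difference of 0.48 ± 0.071 SE, adjusted P = 9.79e-06, and Cdkn1b, the p27 inhibitor, fell from 199.5 to 135 CPM (log2 fold change -0.56). Cdk4 fell from 369.7 to 244 CPM (log2 fold change -0.60), and the repressor gene E2f7 from 7.87 to 2.85 CPM (log2 fold change -1.46).

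Promoters carry known short motifs, and 4 of them were searched. E2F factors bind TTTGGCGC or TTTCCCGC, the cell cycle homology region reads TTTGAA, NF-Y binds CCAAT and the cyclic AMP response element reads TGACGTCA. All were searched on both strands in the 250 bases before the start site, for 9007 genes that had a RefSeq promoter (GRCm38.p6). The E2F motif was in 17.8% of 45 replication promoters and in 2.79% of all, and the TTTGAA motif in 33.9% of 56 mitosis promoters and in 10.2% of all. Among all genes that fell it was 2.29% and 9.24%. In the 100 bases before the start site the shares were 8.89% against 1.21% for E2F in replication promoters and 23.2% against 2.76% for TTTGAA in mitosis promoters. The CCAAT motif was in 27 of the 45 replication promoters, in 69.6% of the mitosis and 88.2% of 17 cholesterol synthesis promoters and in 37.5% of all. TGACGTCA was in 0 of 18 promoters of the cyclic AMP and immediate early list and in 2.86% of all. The replication genes with the E2F motif (8) had a median log2 fold change of -0.73 and the other 37 of -0.25, while mitosis genes with TTTGAA (19) had 0.062 and the other 37 had -0.020. A match is a run of letters and was not tested as a site. Windows of 1 replication and 1 mitosis gene are printed because these lists took different steps. They are read 5′ to 3′ on the strand of the gene, Mcm6 at chr1:128359706-128359825 and Cdc20 at chr4:118437344-118437443, both on the minus strand. Capitals mark only the E2F matches in Mcm6 and the TTTGAA match in Cdc20, and CCAAT or its other strand ATTGG, which both windows also hold, is left in lower case.
Mcm6: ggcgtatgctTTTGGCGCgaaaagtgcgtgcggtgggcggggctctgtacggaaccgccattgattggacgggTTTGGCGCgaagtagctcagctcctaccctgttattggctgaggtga
Cdc20: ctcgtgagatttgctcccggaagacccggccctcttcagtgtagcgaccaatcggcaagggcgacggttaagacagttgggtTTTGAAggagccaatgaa
Mcm6 fell, as given above. Cdc20, an activator of the anaphase promoting complex, read 32.996 and 37.7 CPM with C70 and went from 32.1 to 46.5 CPM with vehicle.

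Genes of ribosome assembly rose in part. Of 56 ribosome biogenesis genes 27 rose (48.2%, beside 25.8% of all genes) and 2 fell (median 0.31), against 37 and 1 with vehicle (median 0.55), and the difference was negative for 15, beside 5.23% of all genes. Rrp1b and Wdr12, which act in assembly of the large subunit, rose from 20.6 to 50.02 CPM (log2 fold change 1.28) and from 19.4 to 41.9 CPM (log2 fold change 1.11). Nop56, of the box C/D particles that methylate ribosomal RNA, rose from 77.8 to 102 CPM (log2 fold change 0.40) with a difference of -0.62 ± 0.085 SE, adjusted P = 2.68e-06. Tcof1, the treacle gene, fell from 81.2 to 38.8 CPM (log2 fold change -1.06), and Ltv1 from 18.6 to 13.3 CPM (log2 fold change -0.49). Of 34 tRNA synthetase and translation factor genes 4 rose (11.8%) and 15 fell (44.1%), beside 25.8% and 26.8% of all genes and against 11 and 14 with vehicle. Their difference was negative for 11, beside 5.23% of all genes. Cars and Aars, the cysteinyl-tRNA and alanyl-tRNA synthetase genes, fell from 104 to 21.6 CPM (log2 fold change -2.27) and from 775 to 178 CPM (log2 fold change -2.13), whereas the helicase gene Eif4a1 and the glutaminyl-tRNA synthetase gene Qars rose from 271 to 366 CPM (log2 fold change 0.44) and from 75.2 to 99.8 CPM (log2 fold change 0.41).

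The integrated stress response, through which cells short of amino acids induce transporters and synthesis enzymes by way of ATF4, had most of its listed genes lower at day 1 than at day 0. Of 30 genes 22 fell (73.3%, beside 26.8% of all genes) and 3 rose (median -1.07), and with vehicle 22 fell and 6 rose. The difference was negative for 12 and positive for 4, beside 5.23% and 8.68% of all genes. Trib3, a pseudokinase induced by ATF4 (chr2:152337422-152344032, minus strand), stood at 88.7, 97.6, 92.6 and 88.04 CPM at day 0 and 2.83, 2.90, 3.28 and 3.46 CPM at day 1 (log2 fold change -4.88 ± 0.13 SE, adjusted P = 4.50e-24). Chac1, which degrades glutathione, stood at 28.2, 31.2, 26.4 and 26.1 CPM and 1.03, 1.18, 0.938 and 0.827 CPM. Slc7a11, the cystine transporter gene, fell from 15.7 to 0.382 CPM (log2 fold change -5.37), and Slc6a9, a glycine transporter gene, from 33.7 to 1.75 CPM (log2 fold change -4.25). Atf4 itself fell from 281 to 100 CPM (log2 fold change -1.49). Slc7a1, the transporter of cationic amino acids, was among the largest negative differences (-1.34 ± 0.15 SE, adjusted P = 6.96e-08): it stood at 132 to 142 CPM at day 0 and 13.8 to 15.6 CPM at day 1 with C70 and at 112 to 117 CPM and 29.3 to 34.2 CPM with vehicle, so that each day 1 library with C70 was below each with vehicle. Psat1, of serine synthesis, fell from 209 to 134 CPM (log2 fold change -0.64) with a vehicle step of 0.15 and a difference of -0.79 ± 0.088 SE, adjusted P = 9.59e-08. Pycr1, of proline synthesis, read 25.1 and 26.2 CPM with C70 and went from 26.3 to 10.01 CPM with vehicle, a positive difference of 1.46 ± 0.11 SE, adjusted P = 4.98e-11. Ddit4, an inhibitor of mTORC1 that glucocorticoids also induce, rose from 57.9 to 273 CPM (log2 fold change 2.24), and the lipoprotein receptor gene Vldlr from 73.2 to 218 CPM (log2 fold change 1.58).

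Genes of oxidative phosphorylation subunits and of mitochondrial ribosomal proteins took small steps in the median. Of 76 subunits of oxidative phosphorylation 38 rose, 1 fell and 37 were not called (median 0.33), beside 25.8% risen over all genes and against 55 risen with vehicle (median 0.51). In 72 of the 76 the C70 step was below the vehicle step, and the difference was negative for 8, beside 5.23% of all genes. Cycs, the cytochrome c gene, stood at 25.9, 23.4, 24.9 and 23.1 CPM at day 0 and 52.6, 50.7, 57.7 and 54.1 CPM at day 1, and with vehicle at 23.2, 21.98 and 21.5 CPM and 81.5, 92.98 and 84.8 CPM, a difference of -0.81 ± 0.11 SE, adjusted P = 1.28e-06. Ndufc2 of complex I rose from 32.2 to 55.7 CPM (log2 fold change 0.79), and Ndufs8, the single member that fell, from 49.6 to 36.2 CPM (log2 fold change -0.45). Of 76 mitochondrial ribosomal proteins 23 rose (30.3%, near the share over all genes), 4 fell (5.26%, beside 26.8% of all genes) and 49 were not called. With vehicle 41 rose and 3 fell. The difference was negative for 4 of the 76, near the 5.23% of all genes, and positive for 0, beside 8.68%. Mrpl49 and Mrpl55 had log2 fold changes of 1.10 and 0.79, and Mrpl54 and Mrps28 of -0.84 and -0.78. The adenine nucleotide carrier gene Slc25a5 rose from 185 to 266 CPM (log2 fold change 0.52) with a difference of -0.39 ± 0.075 SE, adjusted P = 3.07e-04, and Slc25a4 read 429 and 361 CPM. Ppif, which encodes cyclophilin D, rose from 13.5 to 22.4 CPM (log2 fold change 0.73), and Atp5g3, a subunit c gene of ATP synthase, from 157 to 229.9 CPM (log2 fold change 0.55).

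Genes of pyruvate entry and the tricarboxylic acid cycle rose for the most part. Of 33 genes 21 rose (63.6%) and 2 fell (6.06%), with a median of 0.49, beside 25.8% and 26.8% of all genes. With vehicle 25 rose and 3 fell, and the difference was positive for 3 and negative for 8, beside 8.68% and 5.23% of all genes. Pcx, the pyruvate carboxylase gene that supplies oxaloacetate for fat synthesis (chr19:4510472-4621752, plus strand), stood at 118, 126, 116 and 118 CPM at day 0 and 1159.9, 1202, 1169.6 and 1160.0 CPM at day 1 (log2 fold change 3.30 ± 0.046 SE, adjusted P = 3.31e-31). The vehicle step was 3.11. Mpc2, a subunit of the pyruvate carrier, rose from 33.3 to 123 CPM (log2 fold change 1.88). Idh3a, of isocitrate dehydrogenase, rose from 40.4 to 132 CPM (log2 fold change 1.71) with a difference of -0.73 ± 0.066 SE, adjusted P = 1.62e-09. The kinase gene Pdk3 and the phosphatase gene Pdp2, which act on pyruvate dehydrogenase in opposite senses, fell from 43.3 to 21.04 CPM (log2 fold change -1.04) and from 21.3 to 11.1 CPM (log2 fold change -0.94).

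The contractile programme of the fibroblast state went down. Of 32 contractile genes and targets of the coactivator YAP, 27 fell (84.4%, beside 26.8% of all genes) and 2 rose (median -1.35), and with vehicle 28 fell and 2 rose (median -1.34). The difference of response was positive for 7 and negative for 3, beside 8.68% and 5.23% of all genes. Acta2, smooth muscle actin (chr19:34241090-34255590, minus strand), had the largest fall of all genes with a mean of at least 10 CPM in the C70 libraries, from 692, 628, 626 and 678 CPM at day 0 to 6.52, 7.48, 5.69 and 7.01 CPM at day 1 (log2 fold change -6.61 ± 0.19 SE, adjusted P = 8.77e-24). The vehicle step was -6.94. Tpm1, a tropomyosin gene, fell from 618 to 52.2 CPM (log2 fold change -3.57), and Thbs1, a thrombospondin gene, from 989 to 100.5 CPM (log2 fold change -3.30). Actb, cytoplasmic actin, fell from 3342 to 1216 CPM (log2 fold change -1.46), and Mylk, myosin light chain kinase, read 205 and 239 CPM (log2 fold change 0.22). Tagln, the transgelin gene, fell from 33.8 to 5.97 CPM (log2 fold change -2.50). Csrp2, a LIM domain protein gene, was 1 of the 2 that rose, from 22.2 to 49.2 CPM (log2 fold change 1.15).

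Of 32 collagen and collagen processing genes, 12 rose (37.5%) and 14 fell (43.8%), beside 25.8% and 26.8% of all genes. Col1a1, the chain of fibrillar collagen I (chr11:94936224-94953042, plus strand), stood at 9606, 10863, 10265 and 9856 CPM and 2436, 2898, 2746 and 2583 CPM. Col12a1 fell from 1798 to 252 CPM (log2 fold change -2.83), and Loxl3, a cross-linking oxidase, from 192 to 39.2 CPM (log2 fold change -2.29). Col4a1, of the basement membrane that surrounds adipocytes, read 5301 and 10137 CPM (log2 fold change 0.94). Plod2, a lysyl hydroxylase, rose from 32.98 to 138 CPM (log2 fold change 2.07), and Col15a1 from 61.2 to 179.5 CPM (log2 fold change 1.55). Outside that list, 3 genes of small leucine-rich proteoglycans had positive differences of response, of which Dcn and Lum were named after their values were seen. Dcn, the decorin gene, stood at 349, 369, 388 and 395 CPM at day 0 and 289, 261, 313 and 280.5 CPM at day 1 with C70, and at 449, 349 and 474 CPM and 77.3, 91.1 and 88.4 CPM with vehicle. The difference was 1.92 ± 0.12 SE, adjusted P = 1.13e-12. Lum, the lumican gene, had a difference of 1.96 ± 0.20 SE, adjusted P = 1.37e-08, and Ogn, the osteoglycin gene, of 2.08 ± 0.14 SE, adjusted P = 8.62e-12. Bgn and Aspn, the biglycan and asporin genes of the same family and also chosen after their values were seen, had differences of -0.027 ± 0.080 SE, adjusted P = 0.867 and of 0.065 ± 0.11 SE, adjusted P = 0.749, which did not pass.

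**Figure D3:**
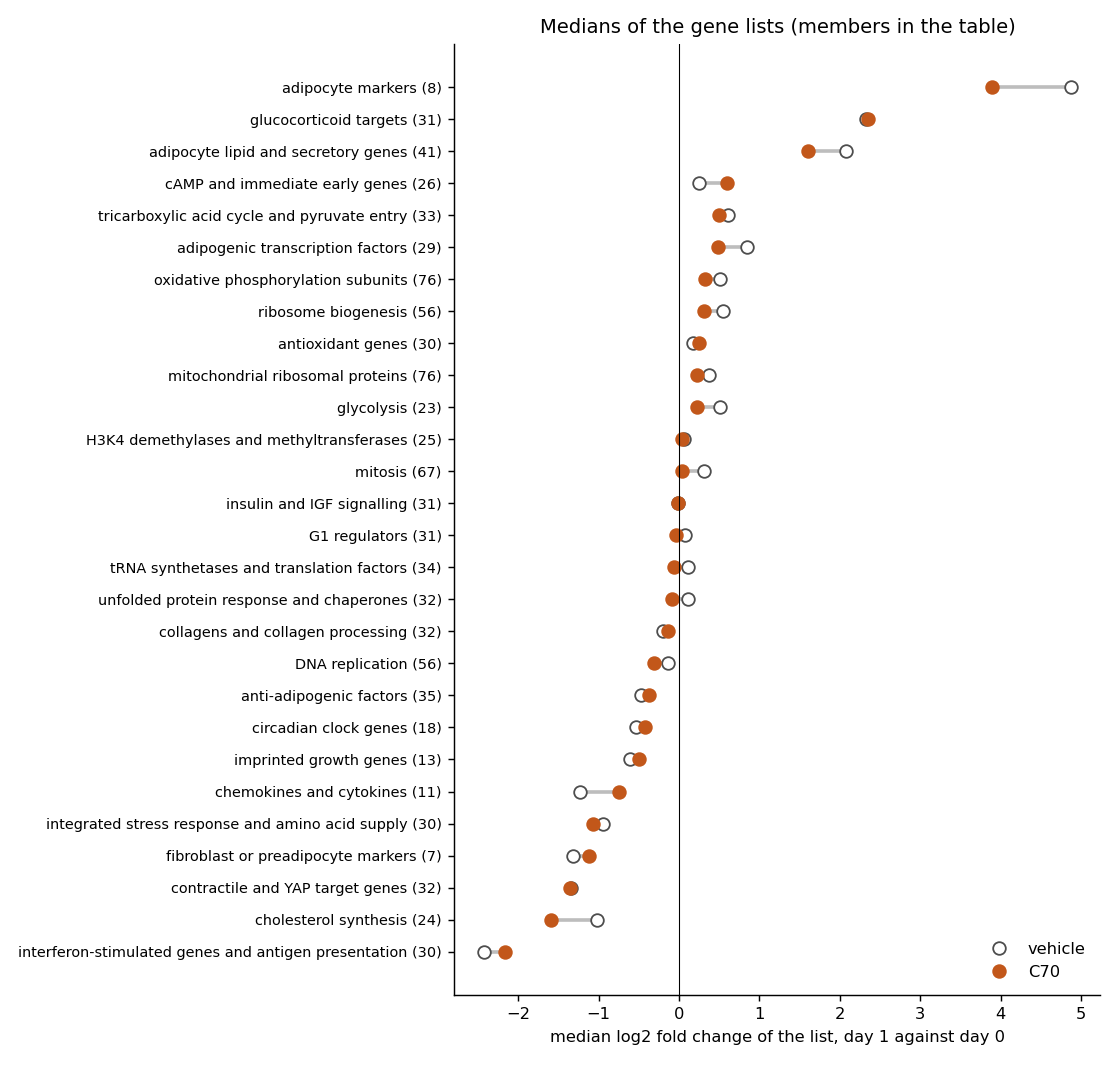
Median log2 fold change of day 1 against day 0 for each gene list shown, in C70-pretreated and vehicle (veh) cells, with the number of genes in the table. Lists with few genes in the table and the genes that the study names are not drawn. Filled circles are C70-pretreated cells and open circles vehicle cells. The adipocyte markers lie farthest to the right and interferon-stimulated genes farthest to the left, and the C70 median is lower than the vehicle median for cholesterol synthesis, mitosis and ribosome biogenesis.

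Interferon-stimulated genes and genes of antigen presentation fell across the list. Of 30 in the table, 28 fell (93.3%, beside 26.8% of all genes), with a median of -2.16, and with vehicle 30 fell (median -2.43). The difference was positive for 17 and negative for 1, beside 8.68% and 5.23% of all genes, so by edgeR the fall was smaller in the pretreated cells for those 17. In DESeq2 it was positive for 14 and negative for 1. Isg15, a ubiquitin-like modifier (chr4:156199424-156200818, minus strand), stood at 76.7, 69.1, 60.5 and 65.9 CPM at day 0 and 3.85, 2.90, 2.40 and 1.9952 CPM at day 1 (log2 fold change -4.60 ± 0.15 SE, adjusted P = 2.19e-22). Ifit1, which binds viral RNA (chr19:34640871-34650009, plus strand), stood at 82.4, 102, 72.3 and 90.3 CPM and 10.2, 4.43, 3.46 and 3.94 CPM, with 1 day 1 library above the other 3. The differences of 0.80 ± 0.27 SE, adjusted P = 0.0357 for Isg15 and of 1.20 ± 0.41 SE, adjusted P = 0.0389 for Ifit1 did not pass after quantile normalization or in DESeq2. Oas2, which makes the activator of RNase L, stood at 88.1, 94.4, 70.5 and 80.4 CPM and 13.6, 11.8, 5.98 and 8.13 CPM with C70 and at 67.2, 50.6 and 59.1 CPM and 2.37, 1.55 and 0.660 CPM with vehicle, a difference of 2.19 ± 0.35 SE, adjusted P = 2.71e-05. Irf7, a transcription factor of the interferon response, fell from 47.2 to 5.12 CPM (log2 fold change -3.20), and B2m, the light chain of class I molecules, from 1849 to 931 CPM (log2 fold change -0.99).

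The interferon-stimulated response element is the site through which such genes are switched on. Its letters were searched as GAAANNGAAA on both strands in the same promoter windows, a motif added after the values were seen. It was in 34.8% of the 23 listed genes that had a promoter and in 2.41% of all. Among genes with a promoter, it was in 2.90% of those that fell. By more than 2 on the log2 scale, 147 genes with a promoter fell and 165 rose, and the motif was in 7.48% and 3.64% of them. In the 100 bases before the start site it was in 21.7% of the listed genes and in 0.766% of all. The 8 listed genes with the motif had a median log2 fold change of -2.94 and the 15 without it of -1.64, a description of so few genes. The promoters of 2 of these genes are printed because they are among the largest falls, Isg15 at chr4:156200819-156200918 on the minus strand and Ifit1 at chr19:34640775-34640888 on the plus strand. The sequences are read on the strand of the gene and the capitals mark the matches, which in Ifit1 read TTTCNNTTTC, the motif on the other strand.
Isg15: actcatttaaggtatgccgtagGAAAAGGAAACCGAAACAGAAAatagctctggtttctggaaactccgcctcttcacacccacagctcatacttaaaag
Ifit1: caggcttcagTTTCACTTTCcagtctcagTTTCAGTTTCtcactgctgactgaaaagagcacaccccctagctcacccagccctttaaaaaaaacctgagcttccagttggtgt
The Isg15 window holds 3 matches, which overlap, and the Ifit1 window 2.

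Of 11 chemokine and cytokine genes in the table, 4 rose (36.4%) and 6 fell (54.5%), beside 25.8% and 26.8% of all genes. Csf1, the macrophage growth factor, stood at 274, 281, 265 and 265 CPM at day 0 and 47.1, 45.8, 44.8 and 45.6 CPM at day 1. Ccl9 fell from 47.2 to 11.1 CPM (log2 fold change -2.09) with a difference of 1.07 ± 0.18 SE, adjusted P = 4.82e-05. Saa3, an acute phase protein induced by glucocorticoids, rose from 1.10 to 43.5 CPM (log2 fold change 5.32) with a difference of 1.15 ± 0.44 SE, adjusted P = 0.0669, which passed in DESeq2, and the membrane-bound chemokine gene Cx3cl1 rose from 78.6 to 297 CPM (log2 fold change 1.92) with a difference of 0.58 ± 0.072 SE, adjusted P = 6.07e-07. Of 18 clock genes 4 rose (22.2%) and 10 fell (55.6%), beside the same shares of all genes. Nfil3 rose from 16.5 to 71.02 CPM (log2 fold change 2.11) and the opposing factor gene Dbp fell from 36.03 to 8.93 CPM (log2 fold change -2.01), while Cry1 fell from 13.9 to 3.35 CPM (log2 fold change -2.05). Nr1d1, the REV-ERBα gene, read 23.4 and 21.8 CPM with C70 and went from 22.5 to 13.6 CPM with vehicle, a difference of 0.63 ± 0.13 SE, adjusted P = 7.42e-04.

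Of 31 genes of insulin and IGF signalling 11 rose (35.5%) and 9 fell (29%), not far from the 25.8% and 26.8% of all genes. Tbc1d4, which governs the release of the GLUT4 transporter, rose from 14.99 to 111 CPM (log2 fold change 2.88), Mtor from 56.2 to 172 CPM (log2 fold change 1.61) and Irs2, an insulin receptor substrate, from 66.5 to 165 CPM (log2 fold change 1.31). Grb14, an inhibitor of the insulin receptor, fell from 43.8 to 4.15 CPM (log2 fold change -3.39), and Igfbp3 from 16.6 to 3.21 CPM (log2 fold change -2.37). The KDM5 genes themselves stayed within the fold threshold: Kdm5a, Kdm5b and Kdm5c had log2 fold changes of -0.035, -0.30 and 0.039. Of 25 H3K4 demethylase and methyltransferase genes 4 rose (16%) and 2 fell (8%), smaller shares than the 25.8% and 26.8% of all genes, and the difference of response passed for 0 of them in edgeR or DESeq2, with 4 at an unadjusted P under 0.05 in edgeR. The risen ones included Kmt2c (0.63) and Kdm2b (0.45), and the 2 that fell were Smyd3 (-0.82) and Setd7 (-0.40).

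Markers of other cell types were checked. In bulk libraries fewer cells of a type and less RNA per cell cannot be told apart. All 8 adipocyte markers in the table rose with C70 in edgeR (median 3.90), beside 25.8% of all genes. With vehicle 7 rose (median 4.87), beside 26.2% of all genes. The difference of response in edgeR was negative for 3 and positive for 0, beside 5.23% and 8.68% of all genes. The call of Pck1, the gene of an enzyme that makes glycerol for triglyceride (log2 fold change 0.57 ± 0.26 SE, adjusted P = 0.0471), was lost in DESeq2, among genes with a mean CPM of at least 10, and without any 1 of 5 libraries. Of 7 fibroblast or preadipocyte markers 5 fell with C70, beside 26.8% of all genes, and 6 fell with vehicle, beside 27.9%. Their difference of response in edgeR was positive for 3 and negative for 0, beside 8.68% and 5.23% of all genes. Pdgfrb fell from 433 to 76.03 CPM (log2 fold change -2.51) and Thy1 from 480.2 to 136 CPM (log2 fold change -1.82), whereas Pdgfra stayed at 664 and 630.0 CPM. The summed level of these 7 was 17266 to 18834 CPM at day 0 and 6517 to 7106 CPM at day 1. Of 6 macrophage markers 1, Cd68, is in the table, at 18.7, 18.9, 19.8 and 18.96 CPM at day 0 and 13.8, 13.6, 13.9 and 15.1 CPM at day 1, beside 1.13 to 1.67 and 1.74 to 2.01 CPM with vehicle. The part of other cells in the results was not tested. No endothelial marker of the 4 listed is in the table, and of the muscle, bone and brown fat lists only Des (-0.58), Runx2 (-1.14) and Ppargc1a are.

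**Figure D4:**
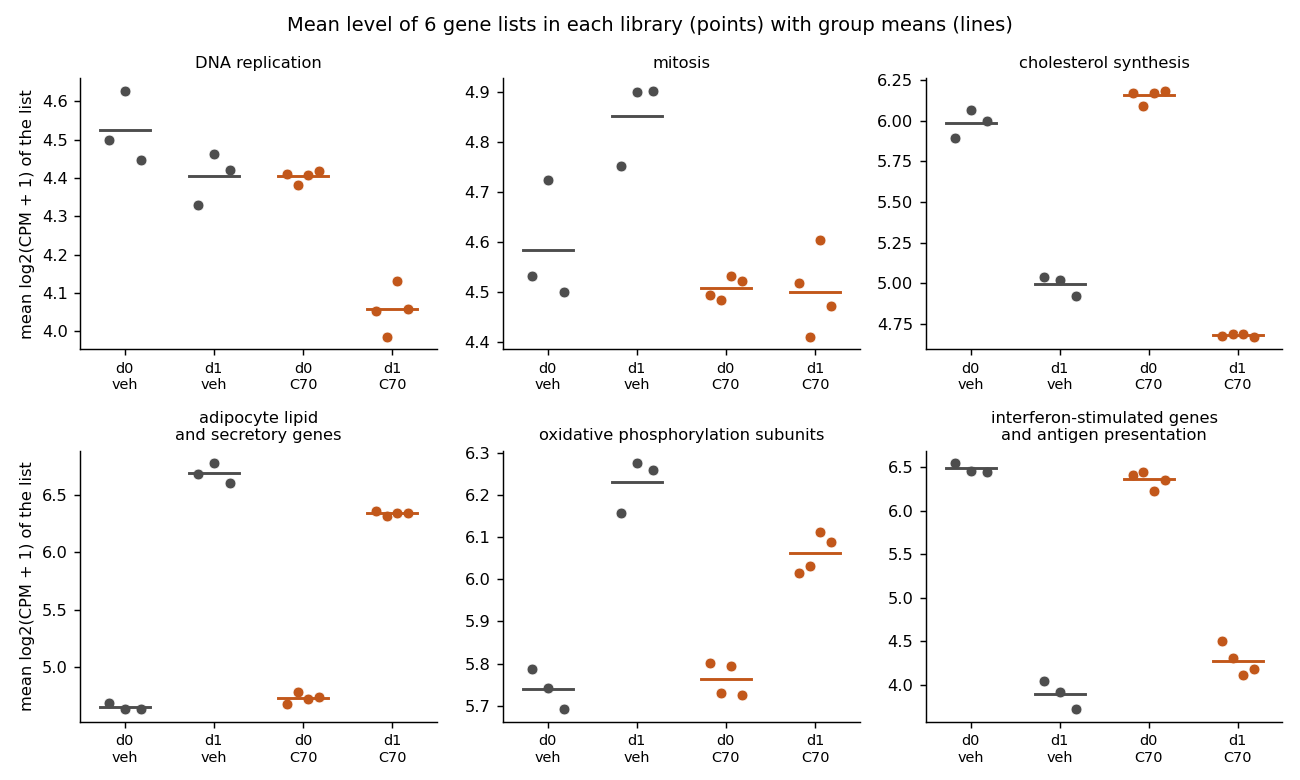
Mean of log2(CPM + 1) over the genes of each list in every library of days 0 and 1 (d0 and d1), for C70-pretreated cells (4 libraries a day) and vehicle cells (veh, 3 a day). Each point is 1 library and the bar is the group mean. In the C70-pretreated cells the 2 days overlap in the panel of mitosis genes and lie apart in the panels of DNA replication, cholesterol synthesis, adipocyte lipid and secretory genes, oxidative phosphorylation subunits and interferon-stimulated genes.

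The other genes with the largest steps were in no list. Map7d2, a microtubule-associated gene, had 5 reads over the 4 day 0 libraries and 2754 over the 4 day 1 libraries, a ratio of 599 (95% exact interval 256 to 1845), and Angptl7 15 reads over the 4 day 0 libraries and 1632 over the 4 day 1 libraries, a ratio of 118 (95% exact interval 71.5 to 212). Prg4, which encodes the joint lubricant lubricin, rose from 0.786 to 154 CPM (log2 fold change 7.58), and Adamts15, a protease of the extracellular matrix, from 2.96 to 206 CPM (log2 fold change 6.12). Among the falls, Cdsn, the corneodesmosin gene, stood at 171, 190.5, 169 and 167 CPM at day 0 and 7.14, 6.10, 5.80 and 7.11 CPM at day 1, and Adgrg6, an adhesion receptor gene, fell from 31.2 to 1.80 CPM (log2 fold change -4.10). All of these moved the same way with vehicle, with log2 fold changes of 9.89, 6.54, 7.67, 6.09, -6.55 and -3.77.

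The 6 largest positive differences of response among genes with a mean of at least 10 CPM over the 14 libraries were those of Spp1, Ppef1, Oas2, Ifi44, Il13ra1 and Ogn. Spp1, the osteopontin gene (chr5:104435118-104441050, plus strand), stood at 1108, 1021, 1113 and 1108 CPM at day 0 and 361, 371, 337 and 367 CPM at day 1 with C70, and at 1257, 1371 and 1248 CPM and 75.6, 63.6 and 59.4 CPM with vehicle. Its step with C70 was -1.599 and the difference 2.69 ± 0.10 SE, adjusted P = 1.54e-18. Il13ra1, a receptor for interleukin 13, went from 21.9 to 20.7 CPM with C70 and from 27.2 to 5.97 CPM with vehicle. Ppef1, a phosphatase gene, had a difference of 2.36, and Ifi44, another interferon-stimulated gene, of 2.17. Among the same genes, the largest negative differences after Hsd11b1 were those of Adcyap1r1, the receptor for the peptide PACAP (-2.12), and Acsbg1, an acyl coenzyme A synthetase (-1.63), followed by Acsl1, Agpat2 and Slc7a1 above. Adcyap1r1 went from 5.50 to 49.6 CPM with C70 and from 2.58 to 101 CPM with vehicle. Of genes below that mean over the 14 libraries, chosen after their values were seen, G0s2, an inhibitor of the lipase encoded by Pnpla2, rose from 1.11 to 8.9963 CPM (log2 fold change 3.03) with C70 and went from 0.312 to 28.9 CPM with vehicle, a difference of -3.51 ± 0.51 SE, adjusted P = 6.32e-06. Gpd1, which makes glycerol phosphate for triglyceride, rose from 1.51 to 2.94 CPM (log2 fold change 0.96) with C70 and went from 1.23 to 14.03 CPM with vehicle, a difference of -2.52 ± 0.31 SE, adjusted P = 4.06e-07.

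The 28 genes that moved in opposite directions all passed the test of the difference, 25 of them rising with C70 and falling with vehicle, and those named here were chosen after their values were seen. Apod, a lipocalin gene (chr16:31296192-31314808, minus strand), stood at 384, 355, 298 and 333 CPM at day 0 and 525, 459.5, 533 and 532 CPM at day 1 with C70, against 219, 148 and 184 CPM and 66.1, 67.6 and 72.8 CPM with vehicle. Every day 1 library with C70 was above every day 0 library, and the order was the reverse with vehicle (2.00 ± 0.19 SE, adjusted P = 5.63e-09). Il1rl1, the receptor for interleukin 33 (chr1:40429570-40465415, plus strand), stood at 76.9, 67.8, 67.2 and 74.9 CPM and 142, 150.2, 138 and 147 CPM with C70 and at 48.5, 56.4 and 49.8 CPM and 31.03, 26.3 and 27.2 CPM with vehicle (1.88 ± 0.089 SE, adjusted P = 1.77e-15). Clca3a1 rose from 109 to 211 CPM (log2 fold change 0.95) with a vehicle step of -0.39 and Lama5, a laminin chain, from 207 to 270.5 CPM (log2 fold change 0.38) with a vehicle step of -0.61. In the other 3 genes C70 cells fell and vehicle cells rose. Fanca, of the Fanconi DNA repair pathway, fell from 8.05 to 6.47 CPM (log2 fold change -0.32) with a vehicle step of 0.43, a fall that was no longer called in DESeq2 or after quantile normalization, and Cd68, given above, had a difference of -0.95 ± 0.23 SE, adjusted P = 0.00368. The third was Mgll, a lipase gene, near 1 CPM in all groups.

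Several genes named here share sequence or position with others, and the counting program and its use of strand are not stated. Exons of Glul, Timp3, Cebpb, Cebpd, Cebpa, Acsl1, Agpat2, Cdc20, Plk1, Ccnd1, Aars and Col4a1 overlap a gene on the opposite strand in the annotation, so reads of both could be mixed if strand was not used. Ccnb1, Ccnb2, Ccnd3 and Slc25a5 have named pseudogenes that could take or give reads. By the filter on low counts, a gene on only at days 0 and 1 could not be seen here.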

How the data were processed

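The authors sequenced 29 strand-specific libraries, made with an mRNA kit from total RNA of 3T3-L1 cells, and, per the labels and their methods, aligned reads with STAR 2.7.2a to GRCm38. The deposited table holds counts, whole numbers per gene that were not scaled between samples although it is named as normalized, for 11959 genes left by a filter of the authors. That filter, the counting program and its use of strand are not given in the sources used here. Per the labels' processing notes the authors used edgeR 3.26.8, whereas their methods name another version.

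Here the deposited counts were fitted in R 4.3.3 with edgeR 4.0.16 (TMM scaling, quasi-likelihood test, 8 group means from all 29 libraries, no covariate). Contrasts were day 1 against day 0 in C70 and in vehicle cells and their difference. Benjamini-Hochberg adjustment was made within a contrast, and DEGs needed an adjusted P under 0.05 and a change over 0.32 on the log2 scale. SE is the log2 fold change divided by the square root of F. The common biological coefficient of variation was 0.0594. Named genes included the 8 largest rises and 8 largest falls with a mean of at least 10 CPM over the 8 C70 libraries. They also included the 6 largest differences in each direction with that mean over the 14 libraries of days 0 and 1. Genes that the study names and list members with the 2 largest rises and falls of each list were named as well. Other named genes, such as Tsc22d3, Snai2 and Mtor, met none of these rules. The gene lists and the genes in them were chosen with earlier results of these data known. Gene positions are from the GENCODE annotation of GRCm38 and promoters from RefSeq. Alternatives were other scaling (median-of-ratios size factors in edgeR, quantile normalization in limma 3.58.1) and DESeq2 1.42.0 itself. Further alternatives were a CPM minimum, other folds, separate fits, a replicate block and leaving out each library. The fits were also run on simulated data, and the outcome is not given here. Tables and plots used Python 3.11.15, pandas 2.3.3, scipy 1.17.1 and matplotlib 3.10.9. Days 2 and 7 entered the fit only. A few genes of the lists count in the list values and are not reported singly here.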

Additional observations from a re-analysis of the deposited data

Results flagged for a closer look

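In groups of 4 libraries, the library at 1 end stood apart from the other 3 by Dixon's rule in 28 of 492 groups examined (5.69%), and chance gives about 1 in 20. In the day 0 C70 libraries 1 library stood below the rest for Errfi1 at 46.1 CPM, Cebpb at 58.9 CPM, Spp1 at 1021 CPM and Kmt2c at 146 CPM. In the day 0 C70 libraries 1 library stood above the rest for Foxo1 at 22.02 CPM, Acsl1 at 39.8 CPM, Birc5 at 15.2 CPM, Aars at 794 CPM, Ddit4 at 60.2 CPM and Pck1 at 10.3 CPM. In the day 1 C70 libraries 1 library stood below the rest for Per1 at 94.4 CPM, Pde3b at 68.02 CPM, Klf4 at 8.94 CPM, Aars at 169 CPM, Apod at 459.5 CPM and Adcyap1r1 at 46.6 CPM. In the day 1 C70 libraries 1 library stood above the rest for Foxo1 at 61.1 CPM, Mcm3 at 29.7 CPM, Cdkn1b at 147 CPM, Ifit1 at 10.2 CPM, Slc6a9 at 1.92 CPM, Nr4a2 at 2.67 CPM and Me1 at 28.9 CPM. The mean log2(CPM + 1) of the cholesterol synthesis list was 6.09 in the lowest day 0 C70 library. The mean log2(CPM + 1) of the tRNA synthetases and translation factors list was 6.96 in the highest day 1 C70 library. The mean log2(CPM + 1) of the imprinted growth genes list was 7.12 in the lowest day 0 C70 library. The mean log2(CPM + 1) of the fibroblast or preadipocyte markers list was 8.92 in the highest day 1 C70 library. The highest total count of the day 0 C70 libraries, 24037170, also stood apart.

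The step from day 0 to day 1 differed between C70 and vehicle cells, by the interaction test in edgeR, for 65 of 74 genes whose difference is printed in the text, genes that were named in part for their differences. Ccnd1, Angptl4, Errfi1 and Peg3, whose printed differences also passed, were not counted among the 74. All values are log2 differences, C70 step minus vehicle step. The C70 step was the higher one for Spp1 (2.69), Ppef1 (2.36), Oas2 (2.19), Ifi44 (2.17), Ogn (2.08), Apod (2.00), Lum (1.96), Dcn (1.92), Il1rl1 (1.88), Ccn5 (1.53), Pycr1 (1.46), Wnt6 (1.30), Ifit1 (1.20) and Timp3 (1.17). Smaller positive differences were those of Ccl9 (1.07), Eno2 (1.03), Isg15 (0.80), Snai2 (0.77), Pdk4 (0.75), Dhcr7 (0.67), Rgs2 (0.66), Runx1t1 (0.65), Nr1d1 (0.63), Cx3cl1 (0.58), Plin2 (0.58), Cdkn1a (0.48) and Nr2f2 (0.38). The C70 step was the lower one for G0s2 (-3.51), Gpd1 (-2.52), Hsd11b1 (-2.51), Adcyap1r1 (-2.12), Acsbg1 (-1.63), Acsl1 (-1.55), Adipoq (-1.47), Agpat2 (-1.37), Slc7a1 (-1.34), Cidec (-1.32), Gpat3 (-1.15), Fabp5 (-1.07), Cyp51 (-0.99) and Dgat2 (-0.97). Negative differences of lesser size were those of Elovl6 (-0.96), Cd68 (-0.95), Acat2 (-0.92), Cebpa (-0.90), Sqle (-0.83), Ccne2 (-0.82), Cycs (-0.81), Lpl (-0.81), Psat1 (-0.79), Idh3a (-0.73), Myc (-0.67), Peg10 (-0.66), Lpin1 (-0.64) and Nop56 (-0.62). The smallest negative ones were Mcm5 (-0.61), Plk1 (-0.61), Ccne1 (-0.57), Pde4b (-0.54), Uhrf1 (-0.53), Cdk1 (-0.44), Slc25a5 (-0.39), Glul (-0.38), Fasn (-0.37) and Mcm6 (-0.33).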

How the results depend on the processing

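Counts of DEGs followed the fold threshold more than any other choice. With a fold over 1.5, 1806 genes rose and 1993 fell with C70, 1840 rose and 2223 fell with vehicle, and the difference was positive for 483 and negative for 185. With a fold over 2 these counts were 804, 986, 813, 1221, 150 and 40, and on the adjusted P alone the negative differences numbered 1053. Leaving out each library in turn gave 3030 to 3094 risen and 3167 to 3199 fallen genes with C70, 3042 to 3141 and 3246 to 3305 with vehicle, and 880 to 1034 positive and 486 to 680 negative differences. Without replicate 2 of day 0 C70, whose pairs differed most in that group, 3061 genes rose and 3185 fell with C70. Without replicate 1 of day 1 vehicle, whose pairs differed most in its group, the difference was positive for 1032 genes and negative for 680. Quantile normalization kept 6009 of the 6296 C70 calls in the same direction and 0 in the opposite one, and the share of differences that were positive was 55.0% against 62.4%. Replicate numbers did not pair the libraries: the correlation of deviations between libraries of the same number was -0.036, -0.0047, 0.066 and -0.020 with C70 and -0.031, 0.12 and -0.051 with vehicle. With a replicate block 3093 genes rose and 3212 fell with C70, 3119 and 3349 with vehicle, and the difference was positive for 1184 and negative for 667. Signs reversed only for values with no call. When each library was left out in turn, the step of Acat2 ran from -0.011 to 0.023, that of Ccna2 from -0.0099 to 0.098 and that of Birc5 from -0.14 to 0.058, with 0.021 after quantile normalization. The difference of Cebpb ran from -0.23 to 0.019 and that of Cebpd from -0.12 to 0.067, with 0.0023 for genes with a mean CPM of at least 10, and that of Bgn from -0.056 to 0.0013. The cause was not tested. Of 3655 values of 216 single-gene steps under alternatives, 3546 kept direction and call, and of 1699 values of 74 differences, 1595 did. Leaving out a library cost the call of 3 of the 216 steps and 7 of the 74 differences, not all of them named singly. Of 319 list medians 70 moved by more than the spread between libraries and 7 changed sign, those of the mitosis, G1 and insulin lists, which lay near 0. Depth limits genes of few reads at day 0, such as Fam107a, Map7d2 and Hif3a.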

Other observations

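The lists of glycolysis, protein folding, antioxidant and imprinted genes were not described as groups above. Of 23 glycolysis genes 9 rose and 4 fell in the pretreated cells over the first day, against 14 and 3 with vehicle, beside 25.8% risen and 26.8% fallen with C70 over all genes. Bnip3, a hypoxia gene of mitochondrial clearance, rose from 36.1 to 83.004 CPM (log2 fold change 1.20), and Ldhb, a lactate dehydrogenase gene, from 53.2 to 117 CPM (log2 fold change 1.14). Ero1l, an endoplasmic reticulum oxidase gene, fell from 134 to 73.2 CPM (log2 fold change -0.87). Eno2, an enolase gene, fell from 72.6 to 49.2 CPM (log2 fold change -0.56) with a vehicle step of -1.59, and the difference of response by edgeR's quasi-likelihood test was 1.03 ± 0.13 SE, adjusted P = 1.40e-06. Of 32 genes of the unfolded protein response and chaperones 8 rose and 9 fell, near the shares of all genes, Dnajb9 from 23.3 to 60.2 CPM (log2 fold change 1.37) and Xbp1 from 34.2 to 79.5 CPM (log2 fold change 1.22) upward, and Herpud1 from 68.8 to 20.8 CPM (log2 fold change -1.72) and Pdia6 from 239.8 to 145 CPM (log2 fold change -0.72) downward.

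Of 30 antioxidant genes 14 rose (46.7%) and 7 fell (23.3%), beside 25.8% and 26.8% of all genes. Cat, the catalase gene, stood at 77.9, 79.5, 78.9 and 78.9 CPM in the 4 day 0 libraries and 501, 491, 525 and 495 CPM in the 4 day 1 libraries, with no overlap (log2 fold change 2.67 ± 0.046 SE, adjusted P = 3.10e-29) and a vehicle step of 2.54. Gclc, of glutathione synthesis, rose from 20.4 to 60.5 CPM (log2 fold change 1.56), and Sod3, the extracellular superoxide dismutase gene, fell from 70.7 to 16.1 CPM (log2 fold change -2.13). Of 13 imprinted growth genes 3 rose (23.1%) and 8 fell (61.5%), beside 25.8% and 26.8% of all genes. Peg10, a retrotransposon-derived gene (chr6:4747306-4760517, plus strand), stood at 146, 127, 129.7 and 138 CPM at day 0 and 789, 889, 893 and 851 CPM at day 1 with C70, and at 233, 211 and 229.6 CPM and 2049, 2476 and 2216 CPM with vehicle, and its difference of response was -0.66 ± 0.16 SE, adjusted P = 0.00276. Peg3 rose from 26.6 to 40.1 CPM (log2 fold change 0.59) with a vehicle step of -0.037 and a difference of 0.63, adjusted P = 1.70e-05. Gnas fell from 1285 to 584 CPM (log2 fold change -1.14), and Slc38a4, an amino acid transporter gene, fell from 167 to 26.9 CPM (log2 fold change -2.63).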
